A study of Mus musculus with 15 samples.

Results

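In mice carrying a model of chronic myeloid leukemia in blast crisis, leukemia stem cells (LSC) from gonadal adipose tissue (AT) were compared with those from the spleen (SPL). A gene entered the comparison when its level was at least 1 FPKM, a read count scaled to transcript length and library depth, in either group. Of 23359 genes in the authors' deposited table, 8891 (38.1%) met this minimum. Of these, 6845 met it in both groups, 677 in AT LSC only and 1369 in SPL LSC only.

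The leukemia was driven by joint expression of the human oncogenes BCR-ABL, a constitutively active tyrosine kinase fusion, and NUP98-HOXA9, a fusion that keeps HOX genes active. Both oncogenes were carried by AT, SPL, bone marrow (BM) and peripheral blood (BL) LSC, and a group of their normal counterparts from bone marrow (NBM) was sequenced as well. The leukemia cells had been transplanted, LSC were taken 12 days later, and the labels give female mice of 3 months for all groups. Each group had 3 RNA-seq libraries, whose values the authors pooled to 1 FPKM per gene and group. How the LSC were sorted is not in the labels. Nor do they state whether a group's libraries stem from different animals, and the p-values of the authors may thus reflect technical spread alone. In bulk RNA, fewer cells of a type and less RNA per cell cannot be told apart.

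Gonadal fat is a depot of lipid-filled adipocytes with resident macrophages, vessels and fibroblasts, and its adipocytes release fatty acids by lipolysis. The mouse spleen is a blood-forming and lymphoid organ, in which red cell and platelet precursors arise beside B and T lymphocytes. Myeloid leukemia cells can occupy both. Inflammatory cytokines of myeloid cells are switched on mainly through the transcription factors NF-kB and AP-1. Both are activated by signals such as bacterial products, tumor necrosis factor and cell stress.

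Pooled columns held 8.96e+06 estimated counts for SPL LSC and 1.96e+07 for AT LSC, so SPL LSC was the shallower group. Ly6a, the gene of the stem cell antigen Sca-1, stood at 109 FPKM in AT, 97.9 in SPL, 105 in BM and 231 in BL LSC and 199 in NBM. Kit, the stem cell factor receptor, stood at 1.64 FPKM in AT, 4.103 in SPL, 2.93 in BM and 2.26 in BL LSC and 10.4 in NBM. Of 8 LSC markers 7 passed the minimum in AT or SPL LSC, the exception being Flt3. The 8 summed to 127 FPKM in AT and 133.8 in SPL LSC, most of it from Ly6a. The sum thus says little about the other markers. None of the 8 was called higher in AT LSC, and 2 were called lower, Meis1 and Myb. Markers of other cell types moved with the comparison: 7 neutrophil markers summed to 3956 FPKM in AT and 685.5 in SPL LSC, and 7 erythroid markers to 103.7 and 630.1. Their part in the results below was not tested. Although the labels give female mice, Y-linked genes were present beside Xist: Eif2s3y stood at 5.24 FPKM in AT and 15.9 in SPL LSC, and Xist, the RNA that silences an X chromosome in female cells, at 4.06 FPKM in AT and 3.801 in SPL LSC.

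A gene was called when the authors tested it and its q value, adjusted by them over all 10 pairs of the 5 groups, was below 0.05. Folds are log2 of AT over SPL LSC, ± is the standard error (fold divided by test statistic), and every level, fold and q value below is taken or derived from the authors' deposited table. Among 8784 tested members, 643 (7.32%) were called higher and 2049 (23.3%) lower in AT LSC, against 7.2% and 17.9% of all 12839 genes tested. The median fold of the tested members was -0.77, and 28% of them lay above 0. The 3 other scalings tried moved the folds up by 0.52 to 0.57 on the log2 scale. Centring the folds on the median of all tested genes gave 1024 members called higher (11.7%) and 793 lower (9.03%). Since all 3 scalings moved the folds up with the same standard errors, a higher call could hardly be lost under them. Staying called higher is therefore no test of robustness, and only lower calls were put to one. All 643 members called higher remained so under the 3 scalings, whereas 793 of the 2049 called lower remained so after centring. Counts after centring are therefore given beside the counts of the gene lists below.

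**Figure D1:**
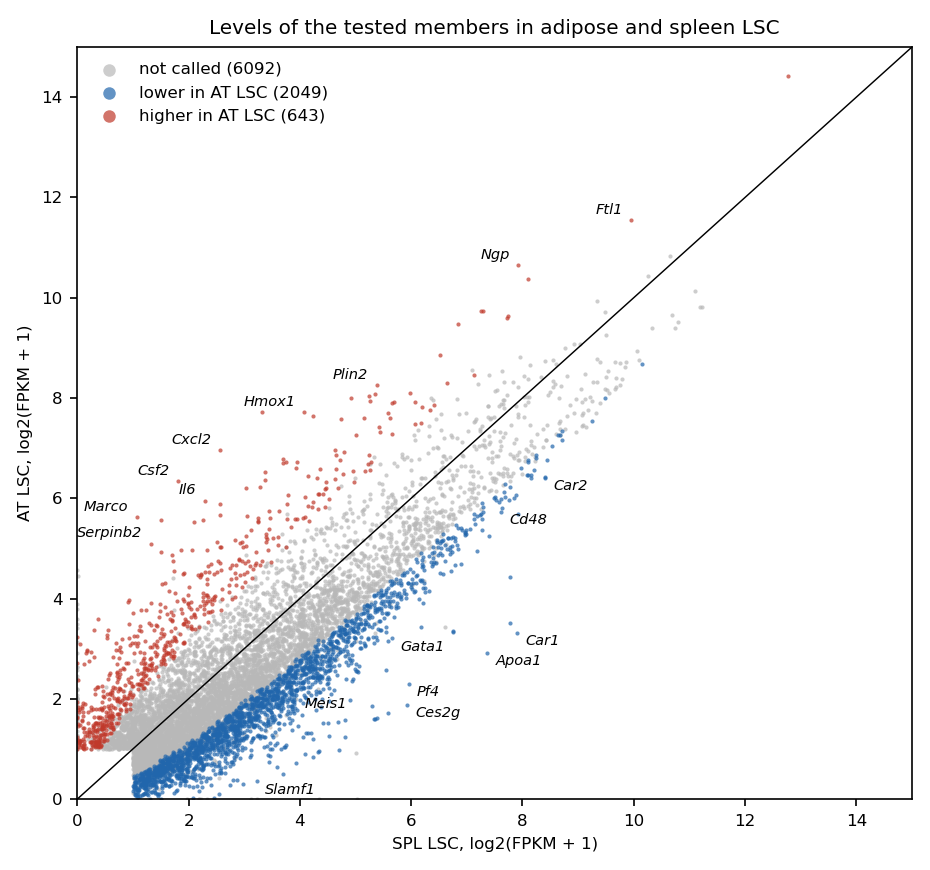
Pooled level of each tested member in SPL LSC (horizontal axis) and AT LSC (vertical axis), both as log2(FPKM + 1), with the line of equal levels; red points were called higher in AT LSC (643), blue points lower (2049) and grey points were not called (6092). Csf2, Cxcl2 and Marco lie far above the line, and Car1, Apoa1 and Ces2g far below it.

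The standard error of a fold had a median of 0.55 over tested members, and the smallest fold called was 1.26 in size, so a gene that was not called is not shown to be equal in both groups. Folds were wide among called members, with 125 of the higher and 159 of the lower ones at 3 or more in size. Members called higher had a median fold of 2.19 and members called lower -1.85. The share called higher was 6.85% of the 2889 members that peaked between 1 and 3 FPKM and 12% of the 408 that reached 100 FPKM or more. Levels in the 5 groups placed AT LSC highest for 312 of the 643 members called higher and BL LSC highest for 298. Of the 2049 called lower, AT LSC was lowest for 1028 and BL LSC for 917.

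Genes of inflammatory signalling were higher in AT LSC in most of their lists, which are described from ligands to receptors, intracellular regulators and effectors. Several CXC chemokines attract neutrophils. Cxcl2 and Cxcl3, ligands of the neutrophil receptor Cxcr2, stood at 123 FPKM in AT, 4.92 in SPL, 8.64 in BM and 13.4 in BL LSC and 4.35 in NBM, and at 46.4 FPKM in AT, 1.84 in SPL, 3.104 in BM and 5.52 in BL LSC and 1.57 in NBM. AT LSC was highest and the other groups stayed at or below 13.4 FPKM for Cxcl2. Their folds over SPL LSC were 4.65 ± 0.66, q = 1.51e-10, and 4.65 ± 0.68, q = 7.28e-10. Cxcl1 had a fold of 5.35 ± 0.86, from 9.36 FPKM in AT and 0.229 in SPL LSC. Cxcl12, the stromal ligand of Cxcr4 that retains stem cells in marrow, stood at 1.67 FPKM in AT, 0.0785 in SPL, 0.116 in BM and 0.0517 in BL LSC and 0.02205 in NBM. The receptors Cxcr2 (3.43 FPKM in AT and 3.03 in SPL LSC) and Cxcr4 (2.26 FPKM in AT and 2.93 in SPL LSC) were not called. The platelet chemokines Pf4 and Ppbp, which belong to megakaryocytes, were lower, with folds of -3.96 and -2.44. In all, 5 of 10 tested genes of the list were called higher and 2 lower, and the same counts held after centring.

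CC chemokines, which attract monocytes and lymphocytes, had 5 of 16 tested members called higher and none lower, or 9 after centring. Ccl3 and Ccl4, inflammatory ligands of monocyte receptors, stood at 243 FPKM in AT, 37.2 in SPL, 114 in BM and 172 in BL LSC and 32.8 in NBM, and at 241 FPKM in AT, 50.7 in SPL, 137 in BM and 98.99 in BL LSC and 90.9 in NBM. These folds were 2.71 ± 0.54 and 2.25 ± 0.54. Ccl2, the main monocyte attractant, was higher by 2.95 ± 0.65 and Ccl7 by 2.86 ± 0.84. The abundant myeloid chemokine Ccl6 stood at 378 FPKM in AT and 135 in SPL LSC and missed the threshold (fold 1.48 ± 0.58, q = 0.0515).

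Growth factors and cytokines had 7 of 11 tested members called higher and 1 lower, with a median fold of 2.22 against -0.77 over all tested members. Csf2, the gene of GM-CSF, stood at 79.8 FPKM in AT, 2.52 in SPL, 5.996 in BM and 2.77 in BL LSC and 0.286 in NBM. AT LSC was the highest of the 5 groups and BM LSC the next. Osm, oncostatin M of the interleukin-6 family, stood at 104 FPKM in AT, 12.4 in SPL, 33.7 in BM and 118 in BL LSC and 10.9 in NBM, with a fold of 3.07 ± 0.60, q = 1.05e-05. The type 2 cytokines Il4 and Il13, products of basophils and mast cells, were higher by 2.01 ± 0.61 and 3.74 ± 0.77, from 26.3 FPKM in AT and 6.54 in SPL LSC, and from 2.57 FPKM in AT and 0.193 in SPL LSC. Il6 stood at 61.03 FPKM in AT, 3.89 in SPL, 9.84 in BM and 11.5 in BL LSC and 1.95 in NBM, and AT LSC was again the highest. Il12a, a subunit of interleukin-12, was the lower gene (0.301 FPKM in AT and 1.34 in SPL LSC, fold -2.15), a call that centring removed. After centring 9 members were called higher and none lower.

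Il1b, Il1a and Il1rn, the last a secreted antagonist of both ligands, had folds of 3.56, 4.74 and 2.97. Il1r2, a decoy receptor, stood at 60.04 FPKM in AT and 17.8 in SPL LSC. Nlrp3, the sensor of the inflammasome that activates interleukin-1 beta, stood at 2.73 FPKM in AT, 0.1004 in SPL, 0.236 in BM and 0.812 in BL LSC and 0.698 in NBM, with a fold of 4.77 ± 0.76, q = 2.79e-08. The protease Casp1, which cuts the interleukin-1 beta precursor, stood at 6.300 FPKM in AT and 16.3 in SPL LSC and its lower call was lost after centring. The adaptor Pycard (6.92 FPKM in AT and 6.99 in SPL LSC) and the pore former Gsdmd (10.4 FPKM in AT and 11.5 in SPL LSC) were not called. Of 12 tested members 5 were called higher and 1 lower, or 5 and none after centring.

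Cytokine receptors had 4 of 14 tested members called higher and none lower, or 9 after centring. Csf2ra, the ligand-binding chain of the GM-CSF receptor, was higher by 2.86 ± 0.63 (3.25 FPKM in AT and 0.448 in SPL LSC). The shared signalling chains Csf2rb (41.97 FPKM in AT and 21.2 in SPL LSC) and Csf2rb2 (38.4 FPKM in AT and 19.9 in SPL LSC), which are near-identical paralogs, were not called as deposited and were called higher after centring. Both tumor necrosis factor receptors, Tnfrsf1a and Tnfrsf1b, were higher, by 1.84 ± 0.53 and 2.53 ± 0.56. Csf1r, the receptor of the macrophage growth factor, stood at 22.9 FPKM in AT, 5.02 in SPL, 3.38 in BM and 54.2 in BL LSC and 22.4 in NBM, and BL LSC was the highest.

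NF-kB is held in the cytoplasm by inhibitor proteins, whose genes are themselves its targets. Of 19 tested subunit, inhibitor and target genes, 11 were called higher and none lower, before and after centring. Feedback inhibitors were among them: Nfkbia stood at 124 FPKM in AT, 23.7 in SPL, 36.9 in BM and 67.7 in BL LSC and 36.3 in NBM, a fold of 2.39 ± 0.88, q = 0.0342, and Tnfaip3, which removes ubiquitin chains from the pathway's adaptors, stood at 6.47 FPKM in AT and 1.69 in SPL LSC, a fold of 1.94 ± 0.62. Among the subunits, Rel and Nfkb2 were higher, with folds of 2.42 and 2.50, while Rela (7.84 FPKM in AT and 7.901 in SPL LSC) and Nfkb1 (14.8 FPKM in AT and 17.3 in SPL LSC) were not called. Nfkbiz, Bcl3 and Nfkbid, nuclear members of the inhibitor family, were higher by 2.73 ± 0.61, 2.44 ± 0.66 and 1.96 ± 0.67. Ptgs2, the inducible cyclooxygenase, stood at 9.41 FPKM in AT, 0.4699 in SPL, 1.54 in BM and 2.601 in BL LSC and 0.761 in NBM, a fold of 4.32 ± 0.68.

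Immediate early genes, which are transcribed without new protein synthesis, had 13 of 20 tested members called higher and none lower, or 15 after centring. Atf3 (30.4 FPKM in AT, 3.16 in SPL, 9.72 in BM and 15.2 in BL LSC and 9.32 in NBM) had the largest fold of the list, 3.26 ± 0.67, q = 2.73e-05. The AP-1 partners Fosl1, Junb, Fosl2, Fosb and Jun were higher, with folds between 1.76 for Jun and 3.06 for Fosl1. Fos itself stood at 61.95 FPKM in AT and 37.5 in SPL LSC and Egr1 at 4.25 FPKM in AT and 4.13 in SPL LSC, and neither was called. Phosphatases that switch off MAP kinases belonged to the higher genes, with Dusp1 at 14.5 FPKM in AT and 2.76 in SPL LSC and Dusp5 at 1.71 FPKM in AT and 0.356 in SPL LSC. Of 8 tested KLF transcription factor genes 5 were called higher, led by Klf2 (2.91 ± 0.65), Klf4 (2.90 ± 0.62) and Klf6 (2.29 ± 0.61, 95.4 FPKM in AT and 19.6 in SPL LSC), and the count was the same after centring. Zc3h12a, a ribonuclease that degrades cytokine mRNA, was higher by 2.49 ± 0.71. Zfp36, which also shortens cytokine mRNA, stood at 74.7 FPKM in AT and 25.6 in SPL LSC with a fold of 1.55 ± 0.66, q = 0.0766, and centring brought it past the threshold.

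Promoters of these genes were read for short motifs, since many of them moved together. A RefSeq window of 250 bases before to 50 after the start site (GRCm38.p6) was matched by symbol and chromosome for 6421 of the 8784 tested members. The NF-kB motif, GGGA then any 4 bases then CC, searched on both strands, was in 24.9% of these windows, in 26% of those of members called higher and in 23.1% of those of members called lower. It was in 5 of 8 cytokine, 5 of 10 CXC chemokine and 8 of 16 NF-kB list windows, and also in 8 of 20 mitosis and 4 of 10 megakaryocyte windows. The AP-1 motif TGANTCA was in 5.03% of all windows, 10.1% of those called higher and 3.75% of those called lower. These matches are descriptions of letters and not binding sites. The stretches below, from the gene's own strand and ending at or before the start site, show NF-kB matches of 4 genes and AP-1 matches of 3 genes called higher, with each match in capitals.
These lie, in GRCm38.p6, for Cxcl2 at chr5:90903772-90903841 on the plus strand, Nfkbia at chr12:55492820-55492889 on the minus strand, Il6 at chr5:30013040-30013109 on the plus strand, Cxcl1 at chr5:90891125-90891194 on the plus strand, Plaur at chr7:24462384-24462450 on the plus strand, Serpinb2 at chr1:107511299-107511365 on the plus strand and Emp1 at chr6:135362756-135362822 on the plus strand.
Cxcl2: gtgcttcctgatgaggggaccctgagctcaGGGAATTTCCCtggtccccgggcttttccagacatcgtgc
Nfkbia: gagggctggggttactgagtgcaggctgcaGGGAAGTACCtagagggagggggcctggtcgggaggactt
Il6: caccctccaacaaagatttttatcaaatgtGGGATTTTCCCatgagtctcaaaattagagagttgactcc
Cxcl1: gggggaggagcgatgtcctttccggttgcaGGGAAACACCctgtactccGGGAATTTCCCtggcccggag
Plaur: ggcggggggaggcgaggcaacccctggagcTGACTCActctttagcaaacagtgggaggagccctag
Serpinb2: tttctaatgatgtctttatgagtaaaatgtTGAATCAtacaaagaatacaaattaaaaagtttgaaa
Emp1: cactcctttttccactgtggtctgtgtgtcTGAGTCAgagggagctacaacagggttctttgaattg
In the Cxcl2, Cxcl1 and Il6 stretches matches on both strands overlap and appear as a longer run of capitals.

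Surface sensors of microbial products had 9 of 18 tested members called higher and none lower, or 14 after centring. Cd14, the co-receptor that hands lipopolysaccharide to Tlr4, stood at 211 FPKM in AT, 9.01 in SPL, 8.81 in BM and 191 in BL LSC and 21.9 in NBM, a fold of 4.55 ± 0.65. AT and BL LSC were the high groups, and the other groups stayed at or below 21.9 FPKM. Trem1, an amplifier of innate signals, stood at 28.1 FPKM in AT, 2.24 in SPL, 3.85 in BM and 39.01 in BL LSC and 6.78 in NBM, highest in BL LSC. Tlr4 and Tlr2 were higher by 2.71 ± 0.58 and 1.69 ± 0.51, and the shared adaptor Myd88 was not called (20.4 FPKM in AT and 18.99 in SPL LSC). The lectin receptor Clec4e stood at 58.3 FPKM in AT and 12.7 in SPL LSC. The formyl peptide receptor genes Fpr1 and Fpr2 had a like fold of 1.86 and 1.86, and as paralogs they may share reads.

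Among coagulation, urokinase and matrix protease genes, 11 of 14 tested members were called higher and none lower, before and after centring. Plaur, the urokinase receptor that focuses proteolysis on the cell surface, stood at 199.6 FPKM in AT, 17.8 in SPL, 30.96 in BM and 195 in BL LSC and 12.1 in NBM, a fold of 3.49 ± 0.53, q = 2.60e-09. Serpinb2, an inhibitor of plasminogen activation, stood at 33.1 FPKM in AT, 1.504 in SPL, 2.36 in BM and 20.4 in BL LSC and 0.418 in NBM, a fold of 4.46 ± 0.61. Clotting factors F10 and F7 were higher by 2.84 ± 0.68 and 2.56 ± 0.57, from 33.8 FPKM in AT and 4.72 in SPL LSC, and from 14.5 FPKM in AT and 2.45 in SPL LSC. Thbd, the thrombin-binding anticoagulant receptor, was higher by 2.00 ± 0.59. Tfpi, the tissue factor pathway inhibitor, stood at 0.396 FPKM in AT and 1.74 in SPL LSC and was not called.

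Genes of eicosanoid synthesis had calls in both directions, with 4 of 17 tested members called higher, 1 lower and a median fold of -0.41, or 6 higher and none lower after centring. Ptges, the prostaglandin E synthase that works with Ptgs2, stood at 1.38 FPKM in AT and 0.1501 in SPL LSC, and the prostaglandin E receptor Ptger2 at 1.13 FPKM in AT and 0.246 in SPL LSC. Ltb4r1, the leukotriene B4 receptor, stood at 6.76 FPKM in AT, 0.136 in SPL, 0.751 in BM and 4.93 in BL LSC and 0.752 in NBM, a fold of 5.64 ± 0.92, and SPL LSC was the lowest of the 5 groups. Alox5 (65.8 FPKM in AT and 92.8 in SPL LSC) and Lta4h (30.04 FPKM in AT and 44.99 in SPL LSC), which make leukotrienes, were not called. Pla2g4a, which frees arachidonic acid from membranes, was lower, with a fold of -1.59 ± 0.52, a call lost after centring.

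Ligands and inhibitory receptors of immune checkpoints had 6 of 15 tested members called higher and 1 lower, or 8 and 1 after centring. Cd274, which encodes PD-L1, stood at 15.4 FPKM in AT, 4.47 in SPL, 5.29 in BM and 16.1 in BL LSC and 4.86 in NBM, a fold of 1.79 ± 0.52, q = 0.00502. The co-stimulatory ligands Cd80 and Cd86 were higher by 2.69 ± 0.64 and 1.84 ± 0.58, and Tnfsf9 by 2.20 ± 0.60. Lilrb4, an inhibitory receptor of myeloid cells, was among the more abundant of them (775 FPKM in AT, 210.4 in SPL, 437 in BM and 941 in BL LSC and 73.3 in NBM). Lgals9, the galectin that binds Tim-3, was lower at 50.4 FPKM in AT, 243 in SPL, 175 in BM and 59.6 in BL LSC and 57.04 in NBM, a fold of -2.27 ± 0.59, q = 0.00135. Tnfsf4, the OX40 ligand, is outside that list and among the 15 largest negative folds (-4.31 ± 0.67, q = 7.51e-09), at 0.554 FPKM in AT, 10.99 in SPL, 4.41 in BM and 1.04 in BL LSC and 1.06 in NBM.

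**Figure D2:**
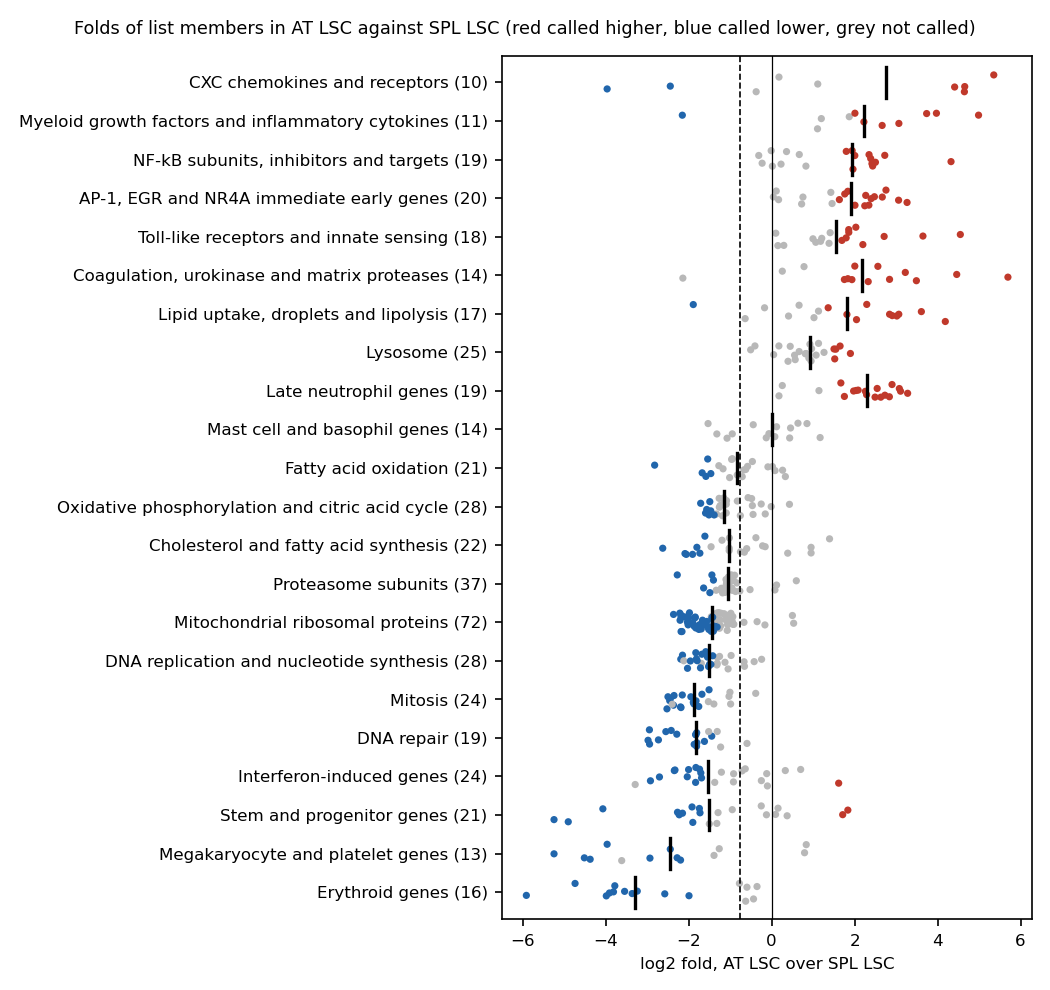
Log2 fold of AT over SPL LSC for tested members of 22 gene lists with more than 3 estimated counts in both groups. Red points were called higher, blue lower and grey not called. Black bars mark each list's median over all its tested members with a finite fold, also those not drawn. Numbers in brackets count all tested members of a list. The dashed line marks the median of all tested members (-0.77). The medians of the lists from CXC chemokines to mast cell genes lie right of the dashed line, and the erythroid median (-3.30) lies furthest left.

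Adipose tissue supplies fatty acids, which cells take up through Cd36, bind with FABP proteins and store as triglyceride in droplets coated by perilipins. Of 17 tested genes of lipid uptake, droplets and lipolysis, 10 were called higher and 1 lower, or 12 and 1 after centring, with a median fold of 1.82. The droplet coat gene Plin2 stood at 304 FPKM in AT, 40.6 in SPL, 40.8 in BM and 169.5 in BL LSC and 46.03 in NBM, a fold of 2.91 ± 0.54, q = 2.07e-06. The last step of triglyceride synthesis was represented by Dgat1 (8.51 FPKM in AT and 1.02 in SPL LSC, fold 3.07 ± 0.57) and Dgat2 (1.77 FPKM in AT and 0.219 in SPL LSC, fold 3.02 ± 0.70). Both known inhibitors of the lipase Atgl were higher: G0s2 stood at 8.26 FPKM in AT, 0.454 in SPL, 1.05 in BM and 2.32 in BL LSC and 1.15 in NBM, a fold of 4.19 ± 0.87, and Hilpda at 104 FPKM in AT, 14.5 in SPL, 19.2 in BM and 58.8 in BL LSC and 12.5 in NBM. Atgl itself, encoded by Pnpla2, was higher by 1.36 ± 0.51, from 20.1 FPKM in AT and 7.83 in SPL LSC. Among lipid carriers, Fabp4 stood at 46.2 FPKM in AT, 3.78 in SPL, 3.45 in BM and 31.8 in BL LSC and 3.57 in NBM, a fold of 3.61 ± 0.60, q = 8.68e-08, whereas Fabp5 was not called (123 FPKM in AT and 192 in SPL LSC). Lpl, which frees fatty acids from lipoproteins outside the cell, was higher by 2.29 ± 0.52, and the importer gene Slc27a1 by 1.82 ± 0.58. Acsl5, an acyl-CoA synthetase, was the lower member (8.32 FPKM in AT and 30.8 in SPL LSC, fold -1.89 ± 0.50, q = 0.00199), while Acsl1 was not called (3.48 FPKM in AT and 3.91 in SPL LSC). The 6 defining adipocyte markers stayed below the minimum in both groups.

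Cd36, the fatty acid importer, stood at 24.4 FPKM in AT, 5.900 in SPL, 15.9 in BM and 41.3 in BL LSC and 2.16 in NBM, so SPL LSC lay below the other LSC groups, and the direct test of SPL over BM LSC gave -1.43 ± 0.43, q = 0.00648.

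Lipid-sensing nuclear receptors had 2 of 9 tested members of their list called higher and none lower, or 4 after centring. Pparg, the receptor for fatty acid ligands, stood at 5.84 FPKM in AT, 1.25 in SPL, 0.822 in BM and 4.72 in BL LSC and 0.874 in NBM, a fold of 2.22 ± 0.74, q = 0.01705. Nr1h3, the oxysterol receptor LXR alpha, stood at 5.37 FPKM in AT and 1.43 in SPL LSC, a fold of 1.91 ± 0.57. Abcg1, a cholesterol exporter and LXR target, stood at 31.6 FPKM in AT and 12.5 in SPL LSC and passed only after centring. Cpt1a, the entry enzyme of mitochondrial fatty acid oxidation, stood at 8.56 FPKM in AT, 9.103 in SPL, 10.6 in BM and 14.5 in BL LSC and 11.6 in NBM, with a fold of -0.09 ± 0.50, q = 0.947, and Ucp2 at 54.9 FPKM in AT and 51.4 in SPL LSC.

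Fatty acid oxidation enzymes gave 0 of 21 tested members called higher and 5 lower, and 1 lower after centring. Of all tested members, 23.3% were called lower as deposited and 9.03% after centring. The median fold of these enzymes was -0.83, close to the -0.77 of all tested members. Hadh and Acadm, enzymes of the beta-oxidation cycle, stood at 9.44 FPKM in AT and 26.1 in SPL LSC, and at 3.07 FPKM in AT and 8.92 in SPL LSC, with folds of -1.47 ± 0.52 and -1.54 ± 0.51. Ehhadh, a peroxisomal enzyme, kept its call after centring (0.227 FPKM in AT and 1.6 in SPL LSC, fold -2.82 ± 0.69, q = 5.76e-04). The long-chain dehydrogenase Acadvl stood at 15.8 FPKM in AT and 21.8 in SPL LSC and was not called.

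Cholesterol and fatty acid synthesis held 7 lower genes among 22 tested and none higher. After centring 3 were lower and 3 higher, so that the list had members on both sides. Scd2, Lss and Dhcr7 were lower under both, with folds of -2.62 ± 0.53, -2.09 ± 0.52 and -2.06 ± 0.51. Scd2 makes monounsaturated fatty acids, Lss closes the sterol rings and Dhcr7 catalyses the last step to cholesterol. Cyp51 (11.5 FPKM in AT and 5.94 in SPL LSC), Mvd (6.37 FPKM in AT and 3.29 in SPL LSC) and the feedback gene Insig1 (2.15 FPKM in AT and 0.816 in SPL LSC) were called higher only after centring.

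Scavenger receptors and macrophage effectors had 8 of 13 tested members called higher and none lower, or 10 after centring. Marco, a scavenger receptor for particles and bacteria, stood at 48.5 FPKM in AT, 1.098 in SPL, 0.251 in BM and 6.72 in BL LSC and 0.0817 in NBM, a fold of 5.47 ± 0.61, q listed as 0. AT LSC was highest, and SPL LSC itself lay above BM LSC (2.13 ± 0.64, q = 0.00728). Slc11a1, a metal transporter of phagosomes, stood at 25.7 FPKM in AT and 2.304 in SPL LSC, a fold of 3.48 ± 0.60. Arg2, the mitochondrial arginase, stood at 5.45 FPKM in AT, 0.0831 in SPL, 0.0962 in BM and 0.946 in BL LSC and 0.372 in NBM, and Irg1, which makes itaconate from a citric acid cycle intermediate, at 8.62 FPKM in AT, 0.4496 in SPL, 0.333 in BM and 0.356 in BL LSC and 0.536 in NBM. Arg1 was not called (4.91 FPKM in AT and 2.61 in SPL LSC). Cybb, the catalytic subunit of the NADPH oxidase, was higher by 2.25 ± 0.62. Lgals3 and Gpnmb, genes of lipid-laden macrophages, were higher by 3.12 ± 0.52 and 2.74 ± 0.55, within a list of which 6 of 10 tested members were higher and none lower, or 8 and none after centring.

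Lysosomal genes had 7 of 25 tested members called higher and none lower, or 11 after centring. The cathepsins Ctss, Ctsb, Ctsh and Ctsl, proteases of the lysosome, were higher, with folds from 1.52 to 1.90, and Ctss stood at 158 FPKM in AT, 42.4 in SPL, 31.6 in BM and 293 in BL LSC and 145 in NBM. Ctsd, the most abundant of the list, stood at 373 FPKM in AT and 197 in SPL LSC and was not called. Tfeb, the transcription factor that drives lysosomal genes, had a listed level of 1.100 FPKM in AT and 0.0422 in SPL LSC. Ctsk, the bone-resorbing cathepsin, had a listed level of 2.35 FPKM in AT and 0.0249 in SPL LSC. Both rest on at most 3 estimated counts in SPL LSC, so no fold is given.

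Of 17 NRF2 antioxidant genes tested, 5 were called higher and none lower, or 7 after centring, with a median fold of 0.05. Hmox1, which breaks down heme, stood at 209 FPKM in AT, 15.8 in SPL, 15.5 in BM and 69.04 in BL LSC and 9.27 in NBM, a fold of 3.72 ± 0.58, q = 1.29e-08. The ferritin chains, which store iron, were higher, Fth1 by 2.35 ± 0.61 (462 FPKM in AT and 90.97 in SPL LSC) and Ftl1 by 1.59 ± 0.59 (2987 FPKM in AT and 992 in SPL LSC). Ftl1 was among the 10 most abundant genes of AT LSC. Osgin1 was higher by 3.50 ± 0.61 and glutathione reductase, Gsr, by 1.70 ± 0.53. Glutathione-synthesis and peroxide-removing genes were not called: Gclm stood at 1.003 FPKM in AT and 1.79 in SPL LSC, Slc7a11 at 20.7 FPKM in AT and 40.8 in SPL LSC and Cat at 11.3 FPKM in AT and 25.9 in SPL LSC. On the iron uptake side Steap3, which reduces iron released from transferrin, was lower at 1.96 FPKM in AT and 13.4 in SPL LSC (fold -2.77 ± 0.54, q = 6.82e-06), and Slc11a2, which moves that iron out of the endosome, was lower as deposited only. Of 14 tested genes of iron handling 1 was called higher and 3 lower, or 1 and 1 after centring. As deposited, 7.32% of all tested members were called higher and 23.3% lower. The other lower gene of iron handling was Aco1 (1.65 FPKM in AT and 4.13 in SPL LSC, fold -1.32), whose call was also lost. The plasma hemoglobin binder Hp was higher, at 194 FPKM in AT, 47.9 in SPL, 47.8 in BM and 238 in BL LSC and 104 in NBM.

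The integrated stress response is triggered by amino acid shortage or misfolded protein and acts through Atf4. Its list had members on both sides, 5 higher and 3 lower among 18 tested, or 6 and none after centring. Chac1 and Trib3, both targets of Atf4, were higher by 3.47 ± 0.64 and 2.72 ± 0.61, from 6.897 FPKM in AT and 0.623 in SPL LSC, and from 7.27 FPKM in AT and 1.11 in SPL LSC. Atf4 stood at 64.7 FPKM in AT and 28.6 in SPL LSC, with a fold of 1.18 ± 0.52, q = 0.0906, and passed after centring. The lower members made serine or asparagine: Phgdh and Psat1 had folds of -1.67 ± 0.57 and -1.98 ± 0.57, and Asns -1.35 ± 0.52. None of these 3 kept its call after centring. Trib3 had a log2 fold of SPL over BM LSC of -2.39 ± 0.49, q = 2.90e-05.

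Glucose metabolism gave few calls, 2 higher and 1 lower among 24 tested genes of glucose transport, glycolysis and the pentose phosphate pathway, or 3 and none after centring. Slc2a6, a glucose transporter gene of myeloid cells, was higher at 35.1 FPKM in AT, 6.098 in SPL, 12.6 in BM and 62.3 in BL LSC and 10.1 in NBM, a fold of 2.53 ± 0.57, q = 1.60e-04, and Slc16a3, the lactate exporter, was higher at 11.1 FPKM in AT and 2.18 in SPL LSC. Slc2a1 (9.02 FPKM in AT and 5.66 in SPL LSC), Slc2a3 (18.9 FPKM in AT and 15.8 in SPL LSC) and Ldha (251 FPKM in AT and 495 in SPL LSC) were not called. Hypoxia-induced genes had 1 of 14 tested members called higher, which was Hilpda, and none lower, or 4 higher after centring. The shares of all tested members called higher were 7.32% as deposited and 11.7% after centring. Respiratory chain and citric acid cycle genes had 7 of 28 tested members called lower and none higher, a share close to the 23.3% of all tested members, and after centring none was called. Examples are Sdha (29.2 FPKM in AT and 81.9 in SPL LSC), Ndufs1 (7.34 FPKM in AT and 20.9 in SPL LSC) and Idh3a (12.2 FPKM in AT and 40.01 in SPL LSC).

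**Figure D3:**
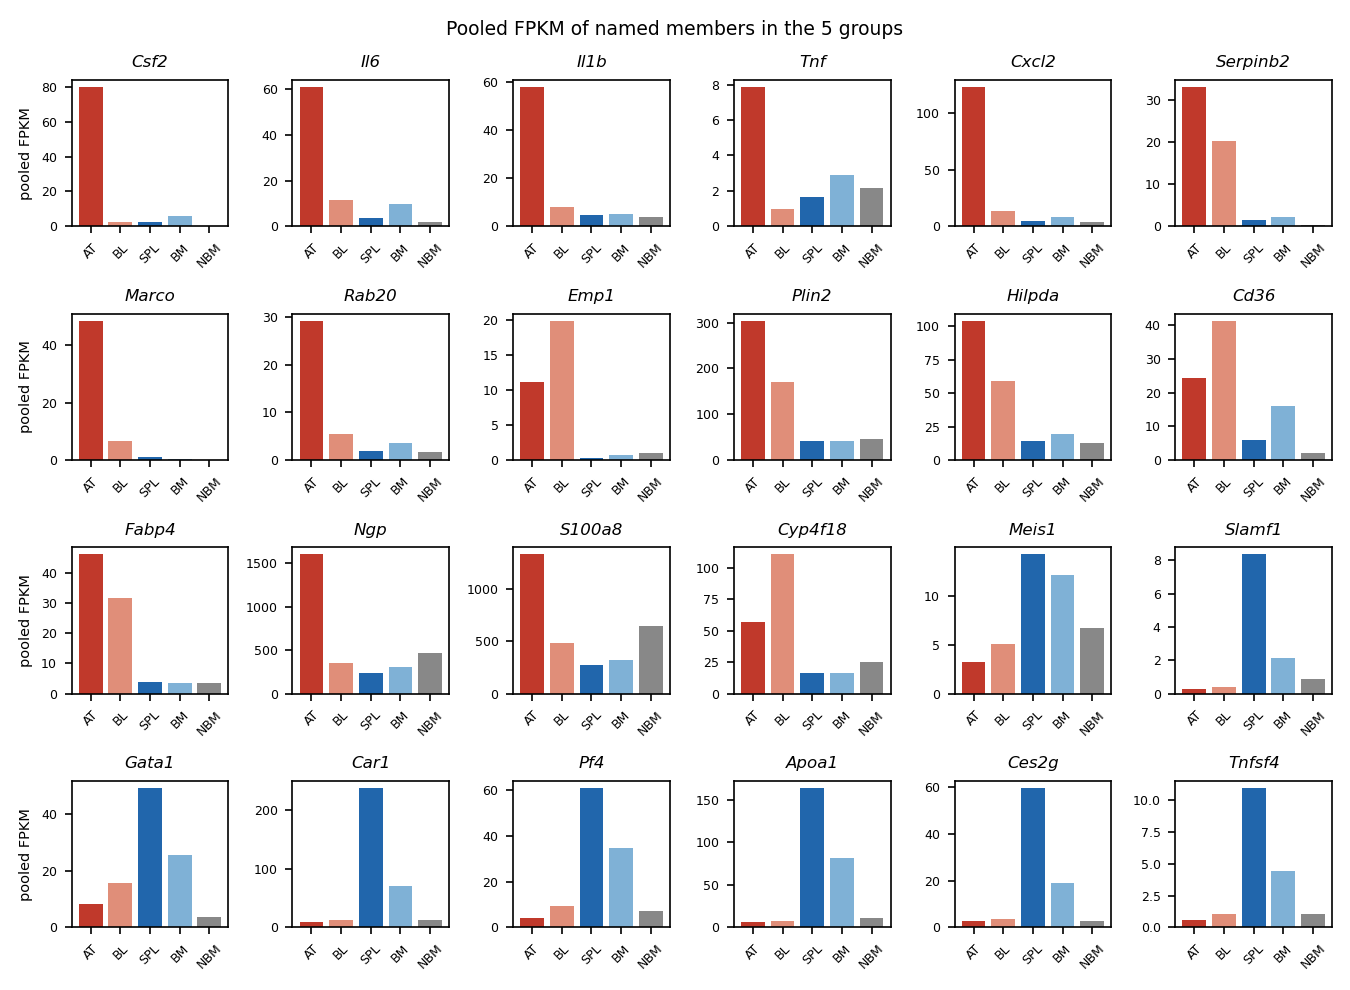
Pooled FPKM (vertical axes, each from 0) of 24 named members in AT, BL, SPL and BM LSC and in NBM, 1 bar per group and no error bar, since the authors deposited pooled values. Csf2, Il6, Il1b, Cxcl2, Marco and Ngp stand highest in AT LSC, Emp1, Cd36 and Cyp4f18 in BL LSC, and Slamf1, Gata1, Car1, Pf4, Apoa1, Ces2g and Tnfsf4 in SPL LSC.

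Mitosis genes were mostly lower in AT LSC. Of 24 tested mitosis genes 17 were called lower and none higher, and 12 were lower after centring, with a median fold of -1.88. Aurka, a kinase of the spindle poles, stood at 3.38 FPKM in AT, 19.4 in SPL, 12.3 in BM and 1.38 in BL LSC and 17.6 in NBM, a fold of -2.52 ± 0.53, q = 3.78e-05. Plk1 (4.29 FPKM in AT and 21.9 in SPL LSC), Bub1b (2.76 FPKM in AT and 15.6 in SPL LSC) and Ccnb1 (11.5 FPKM in AT and 50.98 in SPL LSC), which drive or police the entry into division, had folds of -2.35, -2.50 and -2.15. Mki67, the proliferation marker, stood at 6.51 FPKM in AT, 17.1 in SPL, 12.99 in BM and 2.903 in BL LSC and 16.2 in NBM and its fold of -1.39 ± 0.55, q = 0.0536, missed the threshold. BL LSC was lowest of the 5 groups for Mki67.

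DNA replication and nucleotide synthesis had 15 of 28 tested members called lower and none higher, beside 23.3% of all tested members called lower. After centring 3 were lower, a share close to the 9.03% of all tested members. Rrm1, Mcm10 and Pola1 kept the call, with folds of -1.96 ± 0.55, -2.03 ± 0.54 and -2.15 ± 0.55; Rrm1 supplies deoxynucleotides, Mcm10 opens origins and Pola1 primes synthesis. The helicase genes Mcm2, Mcm4, Mcm5 and Mcm7 were lower as deposited only, with folds from -1.59 to -1.46, and Pcna was not called (26.8 FPKM in AT and 52.6 in SPL LSC). DNA repair genes had 15 of 19 tested members called lower and none higher, and 7 after centring. Both subunits of Ku, the end-binding protein of non-homologous end joining, were among those that kept the call: Xrcc6 stood at 3.53 FPKM in AT, 23.4 in SPL, 14.4 in BM and 3.02 in BL LSC and 18.8 in NBM, a fold of -2.73 ± 0.53, q = 8.28e-06, and Xrcc5 at 0.8100 FPKM in AT, 6.22 in SPL, 3.37 in BM and 0.509 in BL LSC and 1.86 in NBM, a fold of -2.94 ± 0.60, q = 2.23e-05. The nuclease Exo1 was lower, with a fold of -2.95 ± 0.53.

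CCAAT boxes are the known element of many mitotic promoters. The letters CCAAT, on either strand, were in 17 of 20 windows of mitosis genes (85%) and in 40.2% of the windows of all tested members. Stretches of Aurka and Plk1, both called lower, are shown with the match in capitals.
These lie, in GRCm38.p6, for Aurka at chr2:172370587-172370651 on the minus strand and Plk1 at chr7:122159391-122159434 on the plus strand.
Aurka: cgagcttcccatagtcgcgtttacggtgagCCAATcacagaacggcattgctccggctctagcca
Plk1: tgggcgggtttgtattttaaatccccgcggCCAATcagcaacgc
Among windows of members called lower 44.1% held CCAAT, and among those called higher 33.8%.

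Brakes on the cell cycle had 5 of 13 tested members called higher and 1 lower, or 8 and none after centring. Btg1, an antiproliferative gene of resting cells, stood at 31.6 FPKM in AT, 4.98 in SPL, 7.56 in BM and 24.5 in BL LSC and 9.51 in NBM, a fold of 2.67 ± 0.58, q = 7.45e-05. Cdkn1a, the inhibitor p21, stood at 41.8 FPKM in AT and 13.3 in SPL LSC, a fold of 1.65 ± 0.52, and the stress genes Gadd45a, Gadd45b and Gadd45g were higher by 1.95 ± 0.71, 1.83 ± 0.60 and 1.90 ± 0.55. Cdkn2c, the inhibitor p18, was lower (1.19 FPKM in AT and 5.396 in SPL LSC) as deposited only.

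Myc drives nucleolar genes that build ribosomes. Of 20 tested, 10 were called lower and 1 higher, or 3 lower and 2 higher after centring. Myc stood at 11.1 FPKM in AT, 32.7 in SPL, 33.5 in BM and 5.900 in BL LSC and 39.2 in NBM, a fold of -1.56 ± 0.55, q = 0.0274, and lost its call after centring. Wdr12 and Polr1b, needed to make ribosomes, kept theirs, with folds of -2.45 ± 0.54 and -2.29 ± 0.54. The higher gene was Mxd1, which competes with Myc for its partner Max, at 9.55 FPKM in AT, 1.86 in SPL, 1.66 in BM and 11.7 in BL LSC and 1.04 in NBM, a fold of 2.36 ± 0.52, q = 1.03e-04.

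Ribosomal genes showed how much the scaling bears on lower calls. Of 72 tested genes of mitochondrial ribosomal proteins, 42 were called lower as deposited and 12 after centring, none higher in either, with a median fold of -1.43. Of 75 genes of cytosolic ribosomal proteins, many with processed pseudogenes that may share reads, 15 were lower as deposited. After centring 2 were lower and 1 higher. For the cytosolic genes, both shares called lower were smaller than the 23.3% as deposited and 9.03% after centring of all tested members. For the mitochondrial ribosomal genes both shares were larger. Proteasome subunits had 5 of 37 tested members lower, a smaller share than the 23.3% of all tested members, and 1 after centring. That gene was Psmb9, an interferon-induced subunit of the immunoproteasome (8.36 FPKM in AT and 40.4 in SPL LSC, fold -2.27 ± 0.51, q = 1.67e-04). Chaperones had 6 of 17 tested members lower and 1 higher, or 2 and 1 after centring, beside 23.3% and 9.03% of all tested members lower. Hspd1 and Hspe1, the mitochondrial chaperonin pair, had folds of -2.18 ± 0.57 and -2.22 ± 0.51 and kept their calls, and Bag3 was higher by 1.64 ± 0.53.

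**Figure D4:**
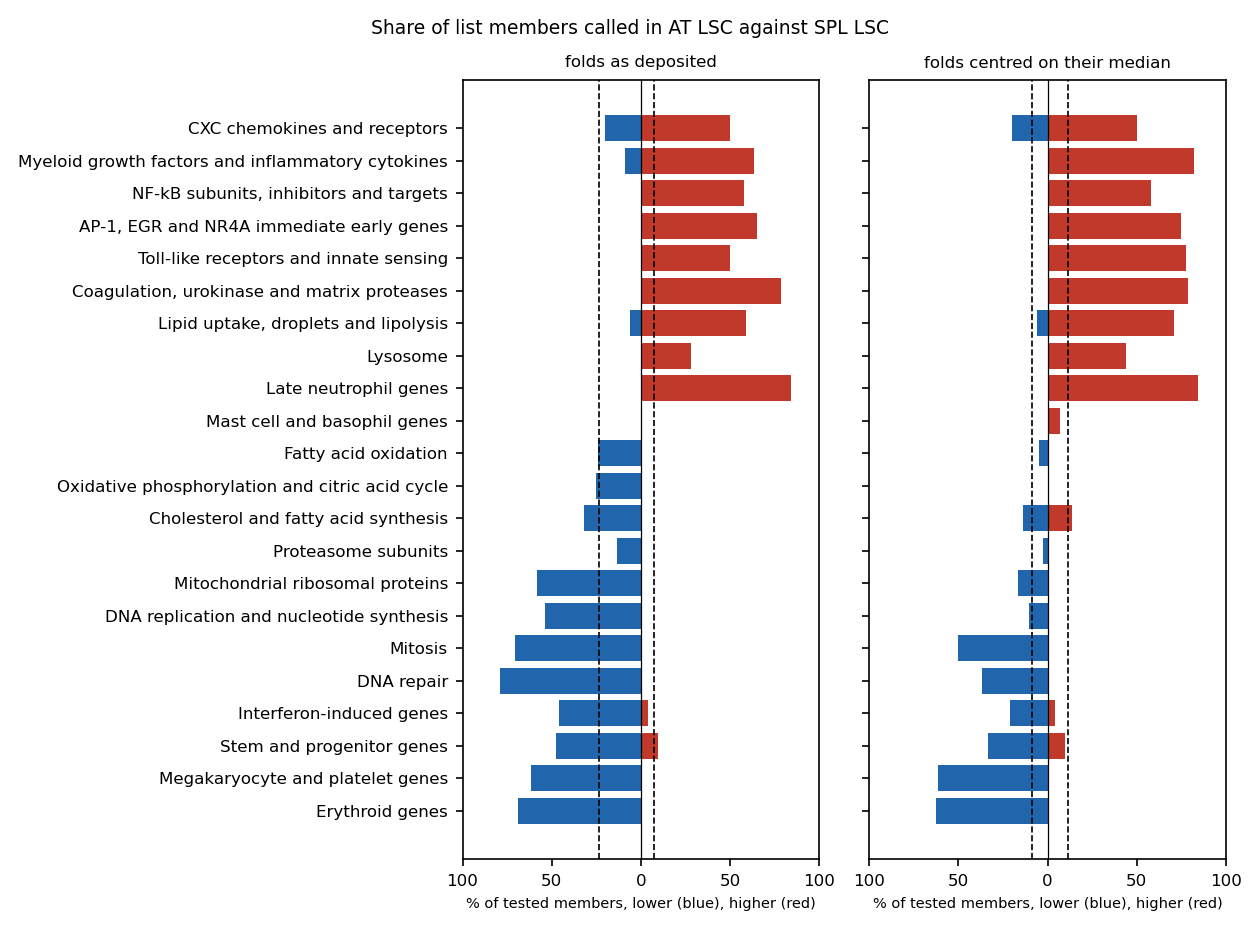
Share of the tested members of 22 gene lists called lower (blue, to the left) or higher (red, to the right) in AT against SPL LSC, with folds as deposited (left panel) and centred on the median of all tested genes (right panel); dashed lines mark the shares over all tested members. Inflammatory and late neutrophil lists keep their red bars after centring, whereas the blue bars of replication, mitochondrial ribosome and oxidative phosphorylation genes shrink. Centring moved the folds up, so red bars could hardly shrink.

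Stem and progenitor genes had 10 of 21 tested members called lower and 2 higher, or 7 and 2 after centring. Meis1, the partner of Hoxa9 in leukemia, stood at 3.205 FPKM in AT, 14.2 in SPL, 12.1 in BM and 5.01 in BL LSC and 6.65 in NBM, a fold of -2.15 ± 0.60, q = 0.00314, while Hoxa9 was not called at 2.63 FPKM in AT, 2.03 in SPL, 3.65 in BM and 2.78 in BL LSC and 0.771 in NBM. Whether reads of the human NUP98-HOXA9 transcript aligned to mouse Hoxa9 was not tested. Slamf1, the CD150 receptor of long-term stem cells and lymphocytes, stood at 0.279 FPKM in AT, 8.35 in SPL, 2.15 in BM and 0.373 in BL LSC and 0.8805 in NBM, so SPL LSC was the highest group. Cd48, another SLAM family receptor, stood at 52.2 FPKM in AT, 195 in SPL, 110.2 in BM and 76.4 in BL LSC and 89.1 in NBM, a fold of -1.90 ± 0.53, q = 0.003203. Lmo2 and Myb were lower, with folds of -2.27 ± 0.58 and -1.74 ± 0.66, the latter as deposited only. Procr, the endothelial protein C receptor that also marks stem cells, and the hyaluronan receptor Cd44 were the higher ones, by 1.84 ± 0.62 and 1.71 ± 0.56. Ly6a and Cd34 (8.07 FPKM in AT and 9.597 in SPL LSC) were not called.

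Erythroid genes had the lowest median fold of the lists with 10 or more tested members, -3.30, with 11 of 16 tested members called lower and none higher, and 10 after centring. Car1, carbonic anhydrase 1 of early red cells, stood at 8.95 FPKM in AT, 239 in SPL, 71.1 in BM and 11.9 in BL LSC and 13.1 in NBM. Gata1, the factor that directs red cell and platelet fate, stood at 8.24 FPKM in AT, 49.1 in SPL, 25.3 in BM and 15.6 in BL LSC and 3.51 in NBM, a fold of -2.58 ± 0.55, q = 6.79e-05. The blood group carriers Rhag and Kel stood at 1.39 FPKM in AT, 22.02 in SPL, 11.3 in BM and 1.61 in BL LSC and 1.53 in NBM, and at 0.07999 FPKM in AT, 4.81 in SPL, 1.16 in BM and 0.291 in BL LSC and 0.3602 in NBM, with folds of -3.98 ± 0.57 and -5.91 ± 0.83. Epor, the erythropoietin receptor, was lower, with a fold of -3.36 ± 0.76. Alas2, the heme enzyme of hemoglobin-making cells, was low in both groups (1.23 FPKM in AT and 2.101 in SPL LSC) and not called. Outside the list Tspo2, Slc14a1 and Icam4, genes of red cell precursors, had folds of -4.43, -4.22 and -3.78.

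Megakaryocyte and platelet genes had 8 of 13 tested members called lower and none higher, and the same count after centring. Pf4, platelet factor 4, stood at 3.91 FPKM in AT, 61.1 in SPL, 34.9 in BM and 9.52 in BL LSC and 7.17 in NBM, a fold of -3.96 ± 0.57, q = 3.85e-10. Gp1ba, Gp9 and Treml1, platelet surface proteins, were lower, with folds of -4.37 ± 0.63, -2.93 ± 0.60 and -4.51 ± 1.04. Itga2b, the CD41 integrin, stood at 4.797 FPKM in AT and 11.5 in SPL LSC and was not called. The GATA letters AGATAA, on either strand, were in 5 of 11 erythroid and 3 of 10 megakaryocyte windows and in 7.16% of the windows of all tested members. They were also in 4 of 16 late neutrophil and 5 of 20 interferon windows, in 10.8% of the windows of members called higher and in 7.95% of those of members called lower. The Kel stretch is shown with its match in capitals.
It lies, in GRCm38.p6, for Kel at chr6:41704346-41704411 on the minus strand.
Kel: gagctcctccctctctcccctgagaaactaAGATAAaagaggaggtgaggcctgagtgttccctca
The megakaryocyte marker sum moved with these genes, at 10.4 FPKM in AT and 91.1 in SPL LSC over 5 markers of which none was at 0, and its part in the result was not tested.

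Late neutrophil genes were higher in AT LSC. Of 19 tested 16 were called higher and none lower, before and after centring, with a median fold of 2.29. Ngp, a secondary granule protein, stood at 1605 FPKM in AT, 242 in SPL, 301 in BM and 348 in BL LSC and 474 in NBM, a fold of 2.73 ± 0.75, q = 0.00261, and S100a8 at 1331 FPKM in AT, 272 in SPL, 319.5 in BM and 480.1 in BL LSC and 645 in NBM, a fold of 2.29 ± 0.68, q = 0.00668; both were among the 10 most abundant genes of AT LSC. Camp and Ltf, antimicrobial granule proteins, were higher by 2.90 ± 0.64 and 2.08 ± 0.72. Cebpe, the transcription factor of granule formation, stood at 3.21 FPKM in AT, 0.5497 in SPL, 0.8697 in BM and 0.447 in BL LSC and 0.701 in NBM, a fold of 2.54 ± 0.70, q = 0.00276. In the tandem stefin cluster on chromosome 16, 6 of 6 tested genes were higher with folds from 3.08 to 3.31, and as close paralogs they may share reads. Cxcr2 and Mmp9 (1.02 FPKM in AT and 0.849 in SPL LSC), genes of the last stages of maturation, were not called. The C/EBP letters TTGCNNAA were in 8 of 16 late neutrophil windows and in 9.02% of all windows, 13.1% of those called higher and 9% of those called lower, and the Ngp stretch shows its upstream match in capitals.
It lies, in GRCm38.p6, for Ngp at chr9:110419640-110419707 on the plus strand.
Ngp: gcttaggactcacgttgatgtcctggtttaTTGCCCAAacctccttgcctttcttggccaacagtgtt

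Primary granule genes, made earlier in the lineage, were mostly not called. Mpo stood at 113 FPKM in AT, 120.4 in SPL, 107 in BM and 6.23 in BL LSC and 524 in NBM, Elane at 128 FPKM in AT and 82.6 in SPL LSC and Prtn3 at 32.3 FPKM in AT and 26.2 in SPL LSC, and none was called. The 3 members called higher of 13 tested (3 after centring as well) were all eosinophil-associated ribonucleases, Ear1, Ear2 and Ear10, with folds of 2.35 ± 0.54, 2.37 ± 0.62 and 2.17 ± 0.54, and Epx, eosinophil peroxidase, was not called (6.84 FPKM in AT and 13.9 in SPL LSC). Mast cell and basophil genes had none of 14 tested members called in either direction by the authors' Cuffdiff test as deposited, 3 with an unadjusted p below 0.05, and a median fold of 0.01. Centring brought 1 past the threshold. Several were abundant: Prss34 stood at 409 FPKM in AT, 388 in SPL, 204 in BM and 448 in BL LSC and 456 in NBM, Mcpt8 at 287 FPKM in AT, 185 in SPL, 234 in BM and 315 in BL LSC and 82.2 in NBM, and Cma1 at 76.9 FPKM in AT and 70.8 in SPL LSC. Monocyte genes had 6 of 16 tested members called higher and none lower, the same counts after centring, with Fn1 at 10.4 FPKM in AT and 1.46 in SPL LSC and lysozyme, Lyz2, at 852 FPKM in AT, 151 in SPL, 121 in BM and 1105 in BL LSC and 299 in NBM, which may share reads with its copy Lyz1. Ly6c2 (182 FPKM in AT and 139 in SPL LSC) and Ccr2 (16.03 FPKM in AT and 12.4 in SPL LSC), defining genes of classical monocytes, were not called.

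Survival genes were mixed. Of 17 tested BCL2 family and death regulators, 6 were higher and 1 lower, or 7 and 1 after centring. The 4 Bcl2a1 genes, near-identical copies induced by NF-kB, had folds from 1.78 to 1.98, and Mcl1 was higher by 1.36 ± 0.50. The pro-death gene Bcl2l11, which encodes Bim, was higher too, at 4.25 FPKM in AT, 0.471 in SPL, 0.436 in BM and 1.04 in BL LSC and 2.54 in NBM, a fold of 3.18 ± 0.71, q = 1.37e-04. Bcl2 (3.86 FPKM in AT and 7.91 in SPL LSC) and Bcl2l1 (11.5 FPKM in AT and 11.7 in SPL LSC) were not called. Feedback targets of cytokine signalling had 4 of 15 tested members called higher, among them Socs3 (2.42 FPKM in AT, 0.187 in SPL, 0.273 in BM and 1.56 in BL LSC and 1.16 in NBM, fold 3.70 ± 0.68, q = 2.09e-06) and the kinase Pim1 (1.99 ± 0.60), and 1 lower, Stat5a (1.72 FPKM in AT and 5.104 in SPL LSC), which lost its call after centring, while the count of 4 higher was the same. Cish and Socs2, targets of Stat5, stood at 53.9 FPKM in AT and 34.6 in SPL LSC, and at 7.500 FPKM in AT and 8.66 in SPL LSC, and were not called.

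Interferon-induced genes were lower more often than higher, 11 against 1 among 24 tested, and 5 against 1 after centring. The immunity-related GTPases, which attack vacuoles of intracellular microbes and respond to interferon gamma, were among the 5 that kept their calls: Iigp1 stood at 2.89 FPKM in AT, 21.9 in SPL, 7.28 in BM and 0.585 in BL LSC and 11.6 in NBM, a fold of -2.92 ± 0.58, q = 1.47e-05, Igtp at 4.86 FPKM in AT, 31.6 in SPL, 16.8 in BM and 9.77 in BL LSC and 23.01 in NBM, a fold of -2.70 ± 0.55, q = 2.49e-05, and Irgm1 at 5.88 FPKM in AT, 29.6 in SPL, 17.6 in BM and 13.5 in BL LSC and 24.4 in NBM, a fold of -2.33 ± 0.53, q = 1.84e-04. Tgtp1 and Tgtp2, near-identical copies outside the list, had folds of -3.55 and -3.55. Classical type I targets Isg15 (4.21 FPKM in AT and 5.002 in SPL LSC), Irf7 (5.39 FPKM in AT and 5.85 in SPL LSC) and Ifit1 (1.96 FPKM in AT and 1.21 in SPL LSC) were not called, and Rsad2 was higher by 1.62 ± 0.60. The ISRE letters, GAAA then any 2 bases then GAAA on either strand, were in 13 of 20 windows of this list and in 3.66% of all windows. Stretches of 3 lower genes are shown with the match in capitals.
These lie, in GRCm38.p6, for Igtp at chr11:58199492-58199555 on the plus strand, Irgm1 at chr11:48871421-48871480 on the minus strand and Gbp3 at chr3:142559969-142560038 on the plus strand.
Igtp: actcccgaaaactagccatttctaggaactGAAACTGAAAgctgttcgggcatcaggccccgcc
Irgm1: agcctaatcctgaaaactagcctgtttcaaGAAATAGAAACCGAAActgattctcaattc
Gbp3: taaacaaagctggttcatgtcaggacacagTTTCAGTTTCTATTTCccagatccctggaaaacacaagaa
Gbp3 carries its match on the opposite strand, so its capitals read as the reverse complement of the motif.

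Of 12 tested MHC class I pathway genes 4 were called lower, Psmb9, Psmb10, Erap1 and Nlrc5, and 1 after centring. Among all tested members 23.3% were called lower as deposited and 9.03% after centring. The heavy chains H2-K1 (402 FPKM in AT and 281 in SPL LSC) and H2-D1 (448 FPKM in AT and 246 in SPL LSC) were not called. Of 10 class II genes 2 were called lower, or 1 after centring, and none higher in either, beside the 23.3% of all tested members called lower. Ciita, the master activator of class II genes, stood at 0.0608 FPKM in AT, 1.05 in SPL, 0.723 in BM and 0.4498 in BL LSC and 7.700 in NBM, a fold of -4.12 ± 0.80, q = 6.74e-06, while its target H2-Ab1 was not called (54.03 FPKM in AT, 60.2 in SPL, 54.3 in BM and 88.1 in BL LSC and 453 in NBM).

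B cell genes were lower in AT LSC. All 7 tested B and plasma cell genes were called lower, before and after centring. Mzb1, a chaperone of antibody-secreting cells, had at most 3 estimated counts in AT LSC and stood at 0.0179 FPKM in AT, 4.49 in SPL, 0.3302 in BM and 0.339 in BL LSC and 9.96 in NBM. Cd79b stood at 1.23 FPKM in AT and 6.32 in SPL LSC. Of 15 tested T and NK cell genes 5 were called lower and 1 higher, or 1 lower and 1 higher after centring. Cd3e stood at 0.2101 FPKM in AT, 1.98 in SPL, 0.415 in BM and 0.624 in BL LSC and 14.9 in NBM, a fold of -3.24 ± 0.79, q = 5.67e-04, and Cd3g at 0.272 FPKM in AT and 1.71 in SPL LSC. The cytotoxic granule genes Gzmb (156 FPKM in AT, 204 in SPL, 238 in BM and 96.9 in BL LSC and 18.4 in NBM) and Nkg7 (129.6 FPKM in AT and 329 in SPL LSC) were abundant in both groups and not called. Summed over 7 B and plasma cell markers, levels were 1.90 FPKM in AT and 30.4 in SPL LSC.

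Adhesion and homing genes had 6 of 22 tested members called higher and 1 lower, or 11 and 1 after centring. The integrin chains of myeloid cells, Itgb2 and Itgam, were higher by 2.02 ± 0.56 and 2.04 ± 0.69, at 169.6 FPKM in AT, 41.8 in SPL, 62.3 in BM and 289 in BL LSC and 65.9 in NBM for Itgb2. The fibronectin receptor chain Itga5 was higher by 1.71 ± 0.53, and the laminin receptor chain Itga6 was lower, with a fold of -2.12 ± 0.57. Itga4 (2.77 FPKM in AT and 3.797 in SPL LSC) was not called. Emp1, an epithelial membrane protein, stood at 11.1 FPKM in AT, 0.287 in SPL, 0.782 in BM and 19.9 in BL LSC and 1.07 in NBM, a fold of 5.28 ± 0.63 (q listed as 0), and Aqp3, the channel for water and glycerol, at 5.71 FPKM in AT, 0.155 in SPL, 0.141 in BM and 12.3 in BL LSC and 2.83 in NBM.

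Of 25 listed stromal and matrix genes 12 lay below the minimum in both groups. Of the 13 tested, 7 were called higher and 1 lower in AT LSC, before and after centring. Some, such as Bgn (2.46 FPKM in AT and 0.0348 in SPL LSC), passed the minimum through AT LSC alone. In addition, 4 called members had at most 3 estimated counts in the lower group. The count is therefore a description only. Of 4 tested endothelial genes 1 was called higher, Esam, and 1 lower, Vwf, before and after centring. Of the 5 endothelial markers only Cdh5 was called. It was higher but below the minimum, at 0.276 FPKM in AT and 0.00547 in SPL LSC (q = 0.0120). With at most 3 estimated counts in SPL LSC, no fold is given for it. In all, 9 members called higher were listed at 0 in SPL LSC. Among them were Serping1, the C1 inhibitor, at 5.57 FPKM in AT LSC, Mgp, a matrix protein that blocks calcification, at 8.38, Lum, a collagen-binding proteoglycan, at 2.07, and Gpihbp1, which carries lipoprotein lipase across capillaries, at 1.25. Against a floor of 3 estimated counts in the pooled SPL LSC column, these were at least 92.5-fold, 31.8-fold, 40.6-fold and 8.12-fold higher. The other 5 were Inmt, Rbp7, S100a16, Tmem252 and Mmp11. Gkn3 was the reverse case, listed at 0 in AT LSC and at 1.47 FPKM in SPL LSC, at least 28.0-fold lower. Dcn, another matrix gene, had a listed level of 20.96 FPKM in AT and 0.00676 in SPL LSC and was not called. Stromal markers summed over 6 genes to 24.5 FPKM in AT and 1.12 in SPL LSC. Most of the AT sum came from Dcn, and most of the SPL sum from Col1a2. Col1a2 ran the other way, at 0.425 FPKM in AT and 1.06 in SPL LSC, and was not called. Of the 6 stromal markers, 4 were called higher, 3 of them below the minimum of 1 FPKM. Their part in the other results was not tested. The 6 defining adipocyte markers summed to 0.693 FPKM in AT and 0.112 in SPL LSC, none passed the minimum, and Adipoq and Plin1 were listed at 0 in SPL LSC. Fabp4, Lpl and Pparg, which both adipocytes and macrophages express, were the 3 of 6 tested adipocyte genes called higher, with the same count after centring.

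Markers of the red pulp macrophages of the spleen were low in both groups. Their 7 markers summed to 16.4 FPKM in AT and 21.5 in SPL LSC, with Spic, their transcription factor, at 2.25 FPKM in AT and 1.83 in SPL LSC and Vcam1 at 1.55 FPKM in AT and 3.74 in SPL LSC. Cd5l, a marker below the minimum of 1 FPKM, was called lower, at 0.0221 FPKM in AT and 0.741 in SPL LSC (fold -5.07, q = 6.4e-05), and so was Cd163, another gene of the list below it, at 0.0269 and 0.578 (fold -4.43, q = 7.4e-07). Of 9 tested genes of the list that passed the minimum, 3 were called higher and none lower, before and after centring, among them Hmox1 and Treml4 (30.1 FPKM in AT, 4.04 in SPL, 1.797 in BM and 48.7 in BL LSC and 6.51 in NBM, fold 2.90 ± 0.64, q = 1.09e-04).

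Several families of neighbouring paralogs had nearly equal folds, and since reads may be shared between copies their members cannot be told apart gene by gene. The 8 Ces2 genes, carboxylesterases in a row of 286 kb on chromosome 8 from 104734003 to 105020410 (mm10), were all called lower, with folds from -4.47 to -4.26. Ces2g was the most abundant of them, at 2.696 FPKM in AT, 59.8 in SPL, 19.02 in BM and 3.59 in BL LSC and 2.69 in NBM. The 4 Cyp2b genes tested, on chromosome 7, had folds from -4.52 to -4.16. The 3 Clca chloride channel regulators tested had folds from -3.54 to -3.53, led by Clca1 at 1.87 FPKM in AT and 21.6 in SPL LSC. The other direction was held by 9 vomeronasal receptor genes in a row of 923 kb on chromosome 6, Vmn2r19 to Vmn2r27, with folds from 1.78 to 2.02 and levels of 7.40 to 14.6 FPKM in AT and 2.00 to 4.01 in SPL LSC. Of 122 Vmn2r genes in the tables these 9 were tested members. Of 8 tested Cyp4f genes, hydroxylases of fatty acids and leukotrienes, 5 were called higher, and the folds of the 8 ranged from 0.57 to 1.76. Cyp4f18, which inactivates leukotriene B4 and lies on chromosome 8 apart from the other 7 on chromosome 17, stood at 56.5 FPKM in AT, 16.7 in SPL, 16.1 in BM and 111 in BL LSC and 24.8 in NBM, a fold of 1.76 ± 0.51, q = 0.00497. Serpina3 protease inhibitors had 7 of 11 copies called lower, with folds from -1.73 to -1.63 and none called after centring.

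Other members of the ranking by fold had no list of their own. Apoa1, the apolipoprotein of high-density lipoprotein, stood at 6.55 FPKM in AT, 164 in SPL, 81.2 in BM and 7.58 in BL LSC and 11.2 in NBM, a fold of -4.64 ± 0.63, q = 2.15e-11. Cda, cytidine deaminase, which inactivates cytarabine, stood at 0.983 FPKM in AT, 25.2 in SPL, 10.1 in BM and 0.988 in BL LSC and 1.38 in NBM, a fold of -4.68 ± 0.62, q = 5.15e-12. Mfsd2b, the sphingosine 1-phosphate exporter of red cells and platelets, had a fold of -4.48 ± 0.59, q = 4.61e-12. On the higher side Rab20, a small GTPase of endosomes, stood at 29.3 FPKM in AT, 1.85 in SPL, 3.497 in BM and 5.56 in BL LSC and 1.71 in NBM, a fold of 3.99 ± 0.64, q = 2.65e-08. Tppp3, a tubulin-binding protein, stood at 44.8 FPKM in AT, 3.26 in SPL, 2.61 in BM and 172 in BL LSC and 2.83 in NBM, highest in BL LSC. Gpr137b and its neighbour Gpr137b-ps had folds of 4.01 ± 0.65 and 4.01 ± 0.65, and the pair may share reads.

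The authors also tested SPL against BM LSC, a pair that shares its SPL libraries with the comparison above, so the values are set side by side and not combined. In that pair 1.26% of the 8718 members tested were called higher and 1.36% lower in SPL LSC. Of the genes named by rule, 32 were called higher and 25 lower in SPL LSC. Many of them were picked by their AT against SPL folds or calls, which use the same SPL values. Their counts therefore cannot be set against the shares of all members. Car1 had a log2 fold of SPL over BM LSC of 1.75 ± 0.44, q = 9.98e-04, Slamf1 1.96 ± 0.44, q = 1.39e-04, Kel 2.05 ± 0.45, q = 9.26e-05 and Ces2g 1.65 ± 0.44, q = 0.00166, all called higher. Gata1 (0.95 ± 0.42, q = 0.0902), Pf4 (0.81 ± 0.41, q = 0.158), Apoa1 (1.01 ± 0.48, q = 0.124) and Meis1 (0.23 ± 0.48, q = 0.827) were not called there. Immediate early and cytokine genes were among those lower in SPL than in BM LSC. Il6 had a log2 fold of SPL over BM LSC of -1.34 ± 0.47, q = 0.0246, Ccl2 -1.76 ± 0.59, q = 0.0195, Ccl3 -1.62 ± 0.41, q = 0.001099, Osm -1.44 ± 0.47, q = 0.0142, Ptgs2 -1.71 ± 0.54, q = 0.0112, Atf3 -1.62 ± 0.61, q = 0.0416 and Klf2 -2.12 ± 0.54, q = 0.00102. Csf2 (-1.25 ± 0.55, q = 0.0887), Il1b (-0.11 ± 0.53, q = 0.939), Cxcl2 (-0.81 ± 0.59, q = 0.378), Plin2 (-0.01 ± 0.40, q = 0.997) and Ngp (-0.32 ± 0.69, q = 0.832) were not called between SPL and BM LSC.

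The most abundant members included housekeeping, iron storage and neutrophil genes, beside microRNA, predicted gene and pseudogene entries. Actb stood at 1829 FPKM in AT and 1617 in SPL LSC, Eef1a1 at 899 FPKM in AT and 2346 in SPL LSC and Hspa8 at 729 FPKM in AT and 1784 in SPL LSC, and none was called. The highest entry of all, Mir692-1, a short locus, for which a value per length is hard to read, had a listed level of 21898 FPKM in AT and 6999 in SPL LSC. Of the 8891 members 107 were not tested. Ubb, a polyubiquitin gene, was listed at 0 in AT LSC and 10594 FPKM in SPL LSC with a status of too many fragments, so its 0 is not read as a level. Just inside the minimum lay Plekha1, at 1.00139 FPKM in AT LSC, and just outside it Chst11, at 0.999955 in SPL LSC.

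Genes outside the naming rule were added after their values were seen, to fill out a list, a family or a motif: Acadvl, Acsl1, Alas2, Alox5, Arg1, Arg2, Bcl2, Bcl2l1, Cat, Ccnb1, Ccr2, Cd48, Cd79b, Cd86, Clca1, Cma1, Ctsh, Ctss, Cyp4f18, Cyp51, Dgat2, Dusp5, Egr1, Epor, Epx, F10, Fosb, Fosl1, Fpr1, Fpr2, Gclm, Gkn3, Gpihbp1, H2-Ab1, H2-K1, Icam4, Ifit1, Il4, Inmt, Insig1, Irf7, Isg15, Itga2b, Itga4, Itgam, Jun, Junb, Lta4h, Ltf, Ly6c2, Mcl1, Mcm2, Mcm4, Mcm5, Mcm7, Mgp, Mmp11, Mmp9, Mpo, Mvd, Myb, Ndufs1, Nfkb2, Nfkbia, Nfkbid, Pcna, Plk1, Pnpla2, Prtn3, Pycard, Rbp7, Rel, Rela, S100a16, Serping1, Slc14a1, Slc27a1, Slc2a1, Slc2a3, Slc7a11, Socs2, Spic, Tgtp1, Tgtp2, Thbd, Tlr2, Tmem252 and Tnfaip3. So were Cd5l, Cd163, Cdh5 and Col1a2.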

How the data were processed

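RNA was extracted with RNeasy Plus and libraries were made with the SMARTer low-input and Nextera XT kits, per the labels' protocols. Trimmomatic 0.32, Cufflinks 2.0.2 and Cuffdiff are named in the submitters' processing notes, with the build mm10. For aligner and annotation, the entry is: not given in the sources used here. Per group and gene the authors deposited 1 FPKM value, pooled over 3 libraries, with estimated counts per group. The authors' deposited table also holds a log2 fold of SPL over AT LSC, entered as a score because some entries are infinite, beside a p-value, its q-value and the statistic behind them. Signs were reversed to give AT over SPL LSC, the standard error was the fold divided by the statistic, and starts were moved by 1 to count from 1. Calls needed the authors' q below 0.05. Members passed 1 FPKM in either group, in the pooled value. The 3 scalings shifted every fold by the median, total count or upper quartile difference, recomputed p from the same standard error and adjusted it again. No library values were used, and 0 columns of single samples were left unmapped. Named genes were the 15 largest folds each way at 10 FPKM or more, up to 5 called per list and direction by q, up to 2 uncalled per list by level, a fixed set of 15 genes and the 10 highest levels. The members and gene lists were chosen with earlier results of these data known. The calculation was tested on simulated data. Promoters came from RefSeq (GRCm38.p6). Work was done in Python 3.11.15 with pandas 2.3.3, numpy 2.4.6, scipy 1.17.1 and matplotlib 3.10.9. Some genes of the lists are counted but not reported by name here.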

Additional observations from a re-analysis of the deposited data

How the results depend on the processing

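The authors deposited pooled values, so no library could be left out in turn and no replicate test was made. No paired analysis was possible because the columns carry no replicate numbers. Of members called higher in AT LSC, 643 as deposited, there were 1024 with median centring, 1052 with total count scaling, 1083 with upper quartile scaling, 415 at a q below 0.01, 387 with a log2 fold of at least 2 in size and 368 with a minimum of 5 FPKM. Of members called lower, 2049 as deposited, there were 793, 788, 695, 1138, 784 and 1279 under the same settings in that order. The cause was not tested beyond the settings' construction, which for the last 3 leaves fewer genes. Without the minimum 924 were called higher and 2295 lower, with p-values adjusted over this comparison alone 679 and 2221, and without merged entries 641 and 2048. For SPL against BM LSC, the 25 named members called lower became 39 with total count scaling. Of 150 named genes called higher all kept the call under the 3 scalings, which moved the folds up and could hardly remove a higher call. Of 130 called lower, 81, 80 and 76 kept the call with median, total count and upper quartile scaling. Calls turned from mostly lower to mostly higher in 3 lists: DNA methylation and Polycomb enzymes (1 higher and 3 lower as deposited, 2 and 1 centred), ABC transporters (0 and 1, then 1 and 0), and T and NK cell genes (1 and 5, then 3 and 1 with upper quartile scaling). With a median standard error of 0.55 and 8.96e+06 estimated counts in SPL LSC, smaller differences were not detectable.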

Other observations

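Groups of genes with no list of their own, some with members in the lists of the report, also moved together. They were chosen after their values were seen, so their counts are descriptions, beside 7.32% of tested members called higher and 23.3% called lower. Of 12 tested genes of de novo purine synthesis and the steps around it, 10 were called lower in AT LSC, 7 after centring, with a median fold of -2.22. Of 21 tested Mettl genes, a family of methyltransferase-like proteins, 16 were lower, and 6 after centring. Pseudouridine synthases (Pus) had 5 of 6 lower, and 3 after centring. Gemin genes, which encode partners of the SMN complex that loads spliceosomal RNAs, had 5 of 6 lower, and 4 after centring. Subunits of the RNA exosome (Exosc) had 7 of 9 lower, and 2 after centring, and carriers of protein import into mitochondria (Timm) had 9 of 15 lower, and 3 after centring.

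On the higher side stood 6 of 6 tested Cd300 genes, paired activating and inhibitory receptors of myeloid cells in a row on chromosome 11, with folds from 1.59 to 2.52. Of 4 tested Ceacam genes, adhesion molecules on chromosome 7, 3 were higher and none lower. All 6 tested Ear genes were higher, with folds from 2.00 to 2.52. Among them Ear1, Ear2 and Ear10 belong to the primary and eosinophil granule list and were counted there already. Neighbouring copies in these families may share reads.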
